A study of Homo sapiens with 18 samples.

Results

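Fatty acid synthesis and desaturase genes were examined in SH-SY5Y cells, an established human neuroblastoma line used as a neuronal model, after exposure to sarin, a nerve agent of the organophosphate class and an inhibitor of acetylcholinesterase. The group was SCD, SCD5, ACACA, FASN, ACLY, ELOVL6, FADS1, FADS2, ACSL3 and TECR, and its members were all probe sets annotated to exactly 1 of these genes. That gave 16 probe sets for 8 of the 10 genes, out of 19065 probe sets with 1 gene (11963 genes) and 22283 on the array. SCD had 4 probe sets, ACLY 3, and ACACA, FASN and ELOVL6 had 2 each, while SCD5, FADS2 and TECR had 1 each. FADS1, a desaturase of polyunsaturated fatty acids, had 3 probe sets that the annotation shares with MIR1908, so none was counted. ACSL3, which activates fatty acids with coenzyme A, had 0 probe sets in the annotation used. The genes were chosen from the measured difference between sarin and control at 24 h, so their values at 24 h are given as a description, with no test.

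The 6 groups held 3 arrays each. They were cells exposed to sarin at 5 ppm and sampled at 3, 24 or 48 h, and untreated control cells of the same 3 times. The labels give 6 flasks in each description and a replicate number, but not how flasks were divided among arrays, so the p-values measure the spread between arrays, which may be technical. All cells are of 1 line, and in whole-culture RNA fewer cells of a type and less RNA per cell cannot be told apart.

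Fatty acids are built in the cytosol. ATP citrate lyase (ACLY) makes acetyl-CoA from citrate, acetyl-CoA carboxylase (ACACA) makes malonyl-CoA from it, and fatty acid synthase (FASN) joins these units into palmitate. ELOVL6 starts the lengthening of palmitate and TECR closes each elongation cycle. The stearoyl-CoA desaturases SCD and SCD5 put the double bond into saturated chains to give oleate and palmitoleate, and FADS2 starts the desaturation of polyunsaturated fatty acids. Much of this pathway is controlled by sterol regulatory element-binding proteins (SREBPs), which act on promoters together with the CCAAT-binding factor NF-Y, and neurons and neuroblastoma cells use its products for membranes. SCD5 is the desaturase form known for its expression in human brain.

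The 250 bases before the annotated start of both stearoyl-CoA desaturase genes are shown because their signals took different courses. They come from RefSeq on GRCh38.p14, 5′ to 3′ on the gene's own strand, in lower case, with each CCAAT, or its reverse complement ATTGG, in capitals. The SCD window is chr10:100346983-100347232 on the + strand and the SCD5 window is chr4:82798797-82799046 on the - strand.
SCD: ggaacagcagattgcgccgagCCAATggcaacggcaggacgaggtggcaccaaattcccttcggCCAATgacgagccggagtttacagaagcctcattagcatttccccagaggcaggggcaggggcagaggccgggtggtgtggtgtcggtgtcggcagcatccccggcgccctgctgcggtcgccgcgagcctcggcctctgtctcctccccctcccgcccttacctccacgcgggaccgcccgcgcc
SCD5: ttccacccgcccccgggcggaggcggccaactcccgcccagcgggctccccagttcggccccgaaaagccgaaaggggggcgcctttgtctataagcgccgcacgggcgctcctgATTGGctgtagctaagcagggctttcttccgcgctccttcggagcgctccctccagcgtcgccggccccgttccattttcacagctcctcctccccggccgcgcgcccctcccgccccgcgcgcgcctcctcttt
CCAAT occurred in the SCD window at 229 and 186 bases before the start, and in the SCD5 window 135 bases before it as ATTGG. There were 14 windows for 9 of the 10 genes, with none for FASN, and the windows overlap each other for ACLY, TECR and FADS2. They include those of FADS1 and ACSL3, which had no probe set counted. CCAAT, searched on both strands, was in 9 of the 14 windows, against 32% of 35116 promoter windows of the same length. The GC box GGGCGG was in 12 of the 14, against 42.6% of all windows. The sterol regulatory element form TCACNCCAC was in 0 of the 14 windows (0.883% of all), as was the E-box CACGTG (6.34% of all). Hits of different motifs may share bases, and the letters say nothing on whether a factor is bound.

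The arrays of sarin at 48 h stood apart from the rest. Correlations of log2 signal were 0.855 to 0.864 among these 3 arrays, 0.65 to 0.746 between them and the other 15, and 0.906 to 0.965 among the other 15. The GAPDH 3′ to 5′ signal ratio, which goes up as RNA is degraded, was 2.15 to 2.30 on sarin 48 h arrays, against 0.696 to 1.17 on the other 15. The same ratio for ACTB was 3.68 to 4.67, against 0.790 to 1.64. A background level was read on each array from 27 probe sets for bacterial sequences that were not spiked in, as their 90th percentile, and was 410.7 to 443 there and 97.0 to 183 on the other 15. The sarin arrays of 24 h had GAPDH ratios of 1.05 to 1.17, against 0.811 to 0.941 in control at 24 h, with no overlap. Of 14 measured noradrenergic neuroblastoma markers, 13 were above background on all arrays of the 5 other groups and 11 on those of sarin at 48 h, while TH, the tyrosine hydroxylase that defines the noradrenergic lineage, was not above background in any group. Of 6 measured glial markers, 1 or 2 were above background on all arrays of each group. S100B and SOX10, from the same list, were not above background in any of the 5 other groups, and S100B not in sarin at 48 h.

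Of the 16 member probe sets, 12 were above background on all 15 arrays outside sarin at 48 h and 8 on all 18 arrays. The other 4 carried little signal. FASN 217006_x_at was above background on 0 of 18 arrays, SCD 211162_x_at on 1, and SCD 211708_s_at and ACACA 214358_at on 4 each. Signals are linear intensities scaled by the submitters, and fold changes were fitted as log2(signal + 16) for all 19065 probe sets together. Values with ± are standard errors for log2 changes and SDs for mean signals (n = 3 arrays a group), and all tests were two-sided.

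**Figure D1:**
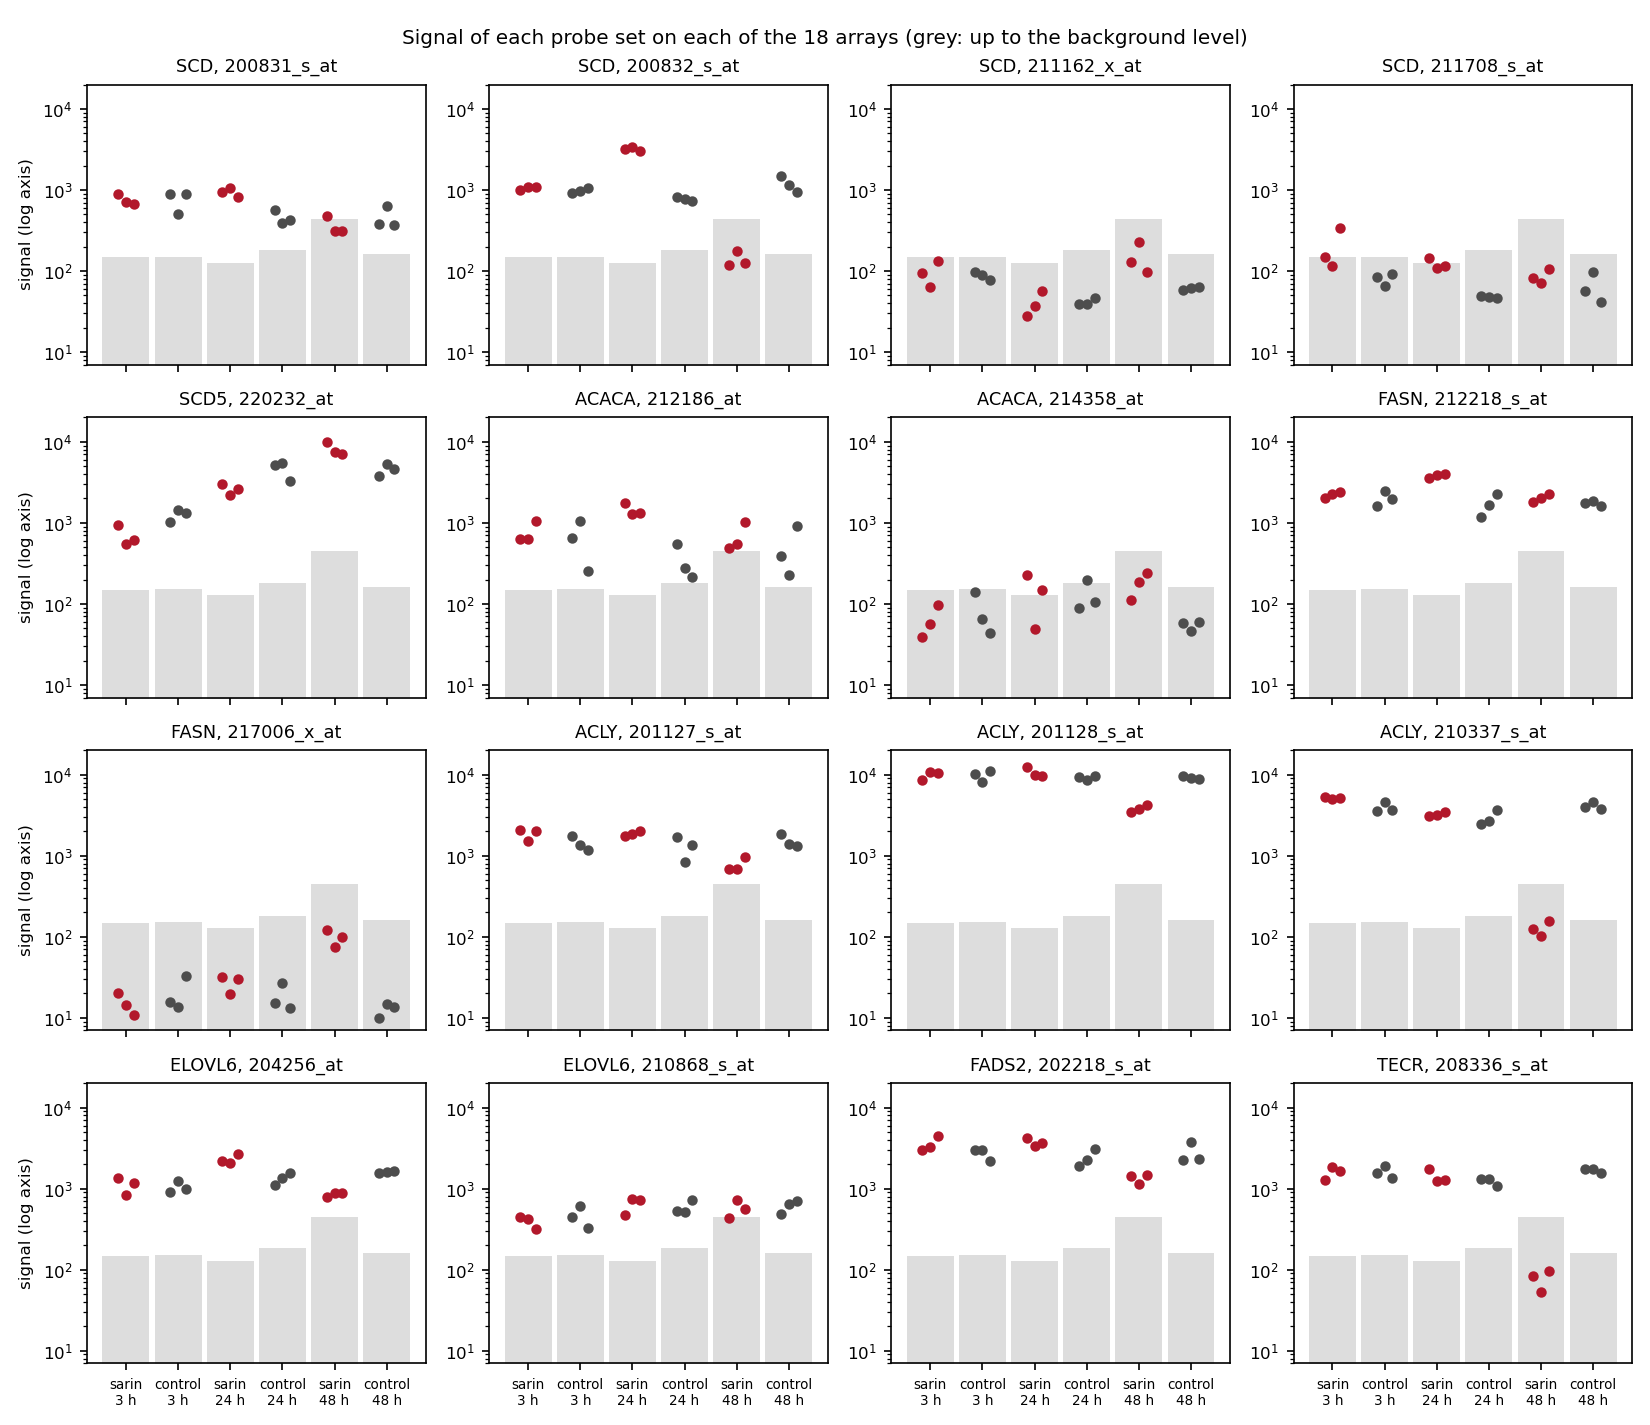
Signal of each member probe set on every array (log axis, MAS5 signal in arbitrary units), with sarin left of control at 3, 24 and 48 h. Points are arrays, and grey bars reach the highest background level of the group's 3 arrays. At 24 h SCD 200832_s_at lies at 2985 to 3389 with sarin and 724 to 809 in control, while at 48 h it lies inside the grey bar with sarin.

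SCD, read by 200832_s_at, held the highest levels of any group at 24 h with sarin and the lowest at 48 h with sarin. At 3 h its signal was 1000.2, 1098 and 1098 with sarin, against 907, 972 and 1051 in control. The groups overlapped, and the log2 change was 0.13 ± 0.18 (95% interval -0.25 to 0.50, limma adjusted p = 0.888). At 24 h it was 3181, 3389 and 2985 with sarin, against 809, 769.5 and 724 in control. All 3 sarin arrays lay above every control array, with means of 3185 ± 202 and 767 ± 42.6, a 4.09-fold difference and a log2 change of 2.03 ± 0.18. By 48 h the signal was 118, 177 and 127 with sarin, below background on each array, against 1469, 1159.9 and 939 in control. It fell at least 2.71-fold at 48 h (log2 change -2.94 ± 0.18, limma adjusted p = 2.855e-10). Ordered by mean, sarin at 48 h was lowest and control at 24 h next, and neither overlapped its neighbours. Control at 3 h, sarin at 3 h and control at 48 h overlapped in the middle, and sarin at 24 h was apart above them.

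The other SCD probe sets followed 200832_s_at in part. SCD 200831_s_at had 949, 1068 and 823 with sarin at 24 h, against 571, 390.2 and 421 in control, again with no overlap, and a log2 change of 1.03 ± 0.27. At 3 h it had 903, 717 and 677 with sarin, against 887, 511 and 896 in control (0.04 ± 0.27). Its 48 h signal was 475, 309.9 and 315 with sarin, where 1 of 3 arrays was above background, against 382, 640.4 and 371 in control. That change of -0.31 ± 0.27 did not pass the test (limma adjusted p = 0.325), and under quantile normalization it did, at -0.81 (limma adjusted p = 0.02325), as it did with median centring at -0.81 (limma adjusted p = 0.02024). SCD 211708_s_at was near background, with 143, 108 and 117 with sarin at 24 h, against 49.7, 48.3 and 46.0 in control, none of which was above background. At 3 h it had 149.6, 114.9 and 340.2 with sarin, 2 of them above background, against 84.9, 64.9 and 90.7 in control, none above it. That log2 change of 1.05 ± 0.40 did not pass the test (limma adjusted p = 0.4759). At 48 h this probe set was not above background in either group. SCD 211162_x_at had 27.7, 37.4 and 56.2 with sarin at 24 h, against 39.5, 39.0 and 46.7 in control, all 6 at background. The part of low signal in the overlap of SCD 211162_x_at at 24 h was not tested.

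SCD5, the other stearoyl-CoA desaturase, had higher signals at 24 and 48 h than at 3 h in both arms, and its sarin arrays were below control at 3 and 24 h and above it at 48 h. At 3 h its signal was 936, 554 and 611 with sarin, against 1018, 1453 and 1336 in control, with no overlap. That log2 change of -0.86 ± 0.22 (95% interval -1.33 to -0.40) did not pass the test over all probe sets (limma adjusted p = 0.3795, unadjusted p = 0.001055), nor did it under any of 16 alternative settings (adjusted p 0.1567 to 0.8107). At 24 h it was 2987, 2223 and 2601 with sarin, against 5132, 5544 and 3244 in control. The groups did not overlap, and the means were 2603 ± 382 with sarin and 4640 ± 1226 in control, 1.74-fold lower with sarin. The 48 h arrays had 9840, 7554 and 7108 with sarin, against 3813, 5362 and 4566 in control. It rose 1.78-fold at 48 h (log2 change 0.83 ± 0.22, limma adjusted p = 0.003678). The size depended on scaling, being 1.62 after quantile normalization (limma adjusted p = 3.867e-06) and 0.33 after median centring, where it did not pass the test (limma adjusted p = 0.1977).

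For SCD5 in untreated cells, the comparison of 48 h with 3 h does not use the 24 h contrast. Control cells at 48 h had 3813, 5362 and 4566, against 1018, 1453 and 1336 in control cells at 3 h, which do not overlap. SCD5 rose 3.58-fold (log2 change 1.84 ± 0.22, limma adjusted p = 0.001154) and stayed past the threshold in all 16 alternatives, at 1.68 to 2.01. It was 1 of 15 probe sets of the whole table that passed in this comparison, which is 0.0787% of those tested (0.0367% higher and 0.042% lower), and the only member. The arrays of the 2 groups did not overlap for 2 members that were higher, SCD5 and ELOVL6 204256_at, and for 1 that was lower, SCD 211162_x_at at background, beside 15.6% of all probe sets (10.2% higher and 5.45% lower). Control at 24 h was as high, at 5132, 5544 and 3244, with a log2 change against 3 h of 1.84 ± 0.22 (limma adjusted p = 0.0004015). In that comparison 596 probe sets passed, 3.13% of those tested (1.96% higher and 1.16% lower), and SCD5 was again the single member. There 1 member was higher and 4 were lower without overlap, beside 23.1% of all probe sets (16.6% higher and 6.48% lower). Both comparisons share the 3 h control arrays. The control arrays of 24 h are also part of the contrast used to choose the genes, so the 24 h against 3 h comparison is not free of that choice. In control the ACTB 3′ to 5′ ratio was 0.7903 to 1.137 at 3 h and 1.462 to 1.504 at 24 h. At 48 h it was 1.075 to 1.441, which overlaps 3 h. GAPDH ratios overlapped between these times. Median signal per array was 310.2 to 339.2 at 3 h, 397 to 413.9 at 24 h and 347 to 373 at 48 h. SCD5 passed with median centring in both comparisons, and the part of the ACTB shift in its rise was not tested. SCD did not pass the test in the same cells, with 1469, 1159.9 and 939 in control at 48 h, against 907, 972 and 1051 at 3 h (log2 change 0.26 ± 0.18, 95% interval -0.12 to 0.64, limma adjusted p = 0.6572). Ordered by mean, SCD5 was lowest with sarin at 3 h, then in control at 3 h, with sarin at 24 h, in control at 48 h, in control at 24 h and with sarin at 48 h. Of these neighbours, control at 48 h and control at 24 h overlapped, and the arrays of the others did not.

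**Figure D2:**
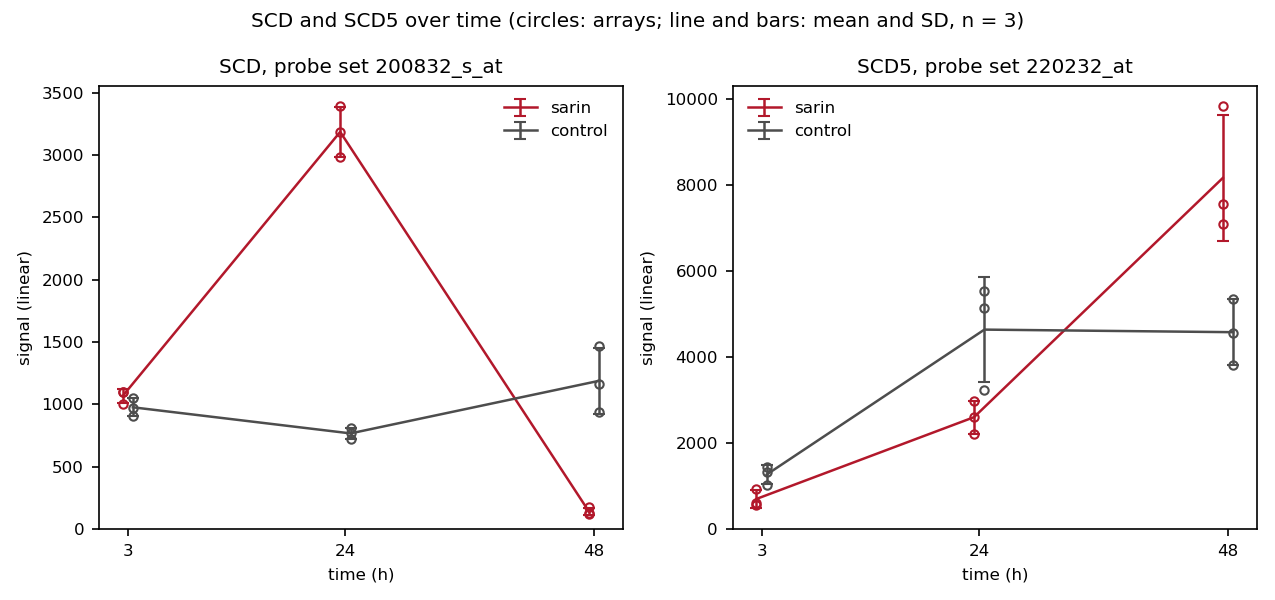
Signal of SCD (200832_s_at) and SCD5 (220232_at) against time in hours (linear axis, MAS5 signal in arbitrary units), for sarin and control. Circles are arrays, lines join group means and bars are SDs (n = 3). SCD with sarin is at 3185 at 24 h and below background at 48 h, while SCD5 in control is 3.58-fold higher at 48 h than at 3 h.

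The enzymes that make malonyl-CoA and palmitate were higher with sarin at 24 h than in control. ACACA 212186_at had 1742, 1301 and 1337 with sarin at 24 h, against 545, 275.5 and 218 in control. The groups were apart, with means of 1460 ± 245 and 346 ± 175, a 4.35-fold difference and a log2 change of 2.12 ± 0.49, the largest standard error among the 12 members above background on those 15 arrays. FASN 212218_s_at had 3529, 3935 and 4022 with sarin at 24 h, against 1179.6, 1683 and 2240.1 in control. All sarin arrays were above all control arrays, with means of 3829 ± 263 and 1701 ± 530.5, a 2.31-fold difference. Neither gene passed the test at 3 h. ACACA had 630.0, 627.5 and 1042.5 with sarin, against 649.9, 1059.5 and 251 in control (log2 change 0.40 ± 0.49, limma adjusted p = 0.8652). FASN had 2004, 2262 and 2380.5 with sarin, against 1627, 2501 and 1994.5 in control (0.14 ± 0.19, limma adjusted p = 0.8851).

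The signals of both enzymes overlapped between groups at 48 h. FASN had 1817, 2024 and 2275 with sarin, against 1748, 1854 and 1599 in control (log2 change 0.23 ± 0.19, 95% interval -0.17 to 0.63, limma adjusted p = 0.3037), and the sign turned to -0.27 with median centring. ACACA had 492, 553 and 1036 with sarin, against 388, 225 and 918 in control (0.58 ± 0.49, limma adjusted p = 0.3067). The second ACACA probe set, 214358_at, had 225, 49.1 and 149.5 with sarin at 24 h, against 90.2, 198 and 104 in control, and these overlapped (-0.02 ± 0.50). It was above background on 2 of 3 sarin arrays and 1 of 3 control arrays there, and the part of this low signal in the overlap was not tested.

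ACLY, which supplies acetyl-CoA, was read by 3 probe sets of unequal course. At 24 h ACLY 201127_s_at had 1757, 1859.9 and 1998 with sarin, against 1688, 836 and 1359 in control, which do not overlap (log2 change 0.58 ± 0.23). The other ACLY probe sets overlapped at 24 h, with log2 changes of 0.19 ± 0.15 for 201128_s_at and 0.16 ± 0.17 for 210337_s_at. At 3 h ACLY 210337_s_at had 5344, 5071 and 5091 with sarin, against 3605, 4641 and 3644.5 in control. These arrays were apart, and the log2 change of 0.39 ± 0.17 did not pass the test (limma adjusted p = 0.5168). At 48 h all 3 probe sets fell. ACLY 201128_s_at had 3429, 3828 and 4246 with sarin, against 9502.5, 9122 and 8853 in control, and fell 2.39-fold (log2 change -1.26 ± 0.15, limma adjusted p = 9.415e-07). ACLY 201127_s_at had 680.2, 696 and 967 with sarin, against 1850.2, 1388 and 1308 in control (-0.94 ± 0.23, limma adjusted p = 0.001784). ACLY 210337_s_at had 126.5, 103 and 158 with sarin, none above background, against 4018, 4632 and 3732 in control. It fell at least 9.42-fold (-4.85 ± 0.17, limma adjusted p = 1.06e-13), so the probe sets of this 1 gene differed widely in size on the sarin 48 h arrays.

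ELOVL6, the elongase of palmitate, was higher at 24 h and fell at 48 h by 204256_at. It had 2191, 2099 and 2705 with sarin at 24 h, against 1109, 1354 and 1541 in control, a 1.74-fold difference with no overlap. Later, at 48 h, it had 787, 882 and 889 with sarin, against 1551.5, 1605 and 1650.0 in control (log2 change -0.90 ± 0.18, limma adjusted p = 0.0003686). ELOVL6 210868_s_at overlapped at both times, at 0.11 ± 0.28 for 24 h and -0.11 ± 0.28 for 48 h. In control cells 204256_at had 1551.5 to 1650.0 at 48 h, against 903 to 1237 at 3 h, a log2 change of 0.63 ± 0.18 that did not pass the test (limma adjusted p = 0.195).

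TECR, the reductase that ends the elongation cycle, overlapped between groups at 3 and 24 h. At 24 h it had 1758, 1232 and 1274 with sarin, against 1298, 1319.9 and 1082 in control (log2 change 0.19 ± 0.21). The 48 h signal was 84.2, 53.2 and 96.0 with sarin, none above background, against 1746, 1755 and 1540.2 in control. It fell at least 3.865-fold (-4.20 ± 0.21, limma adjusted p = 2.088e-11).

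FADS2, the desaturase of polyunsaturated fatty acids, had 3026, 3305 and 4452 with sarin at 3 h, against 3012, 2984.5 and 2215.5 in control. The arrays were apart by a small margin and the log2 change of 0.38 ± 0.21 did not pass the test (limma adjusted p = 0.6487). At 24 h it had 4262, 3380.4 and 3652 with sarin, against 1928, 2286 and 3069 in control, again with no overlap (0.65 ± 0.21). At 48 h it had 1451.5, 1148 and 1472 with sarin, against 2268, 3812 and 2318 in control. FADS2 fell by 1.002 ± 0.21 on the log2 scale at 48 h (limma adjusted p = 0.0006136).

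**Figure D3:**
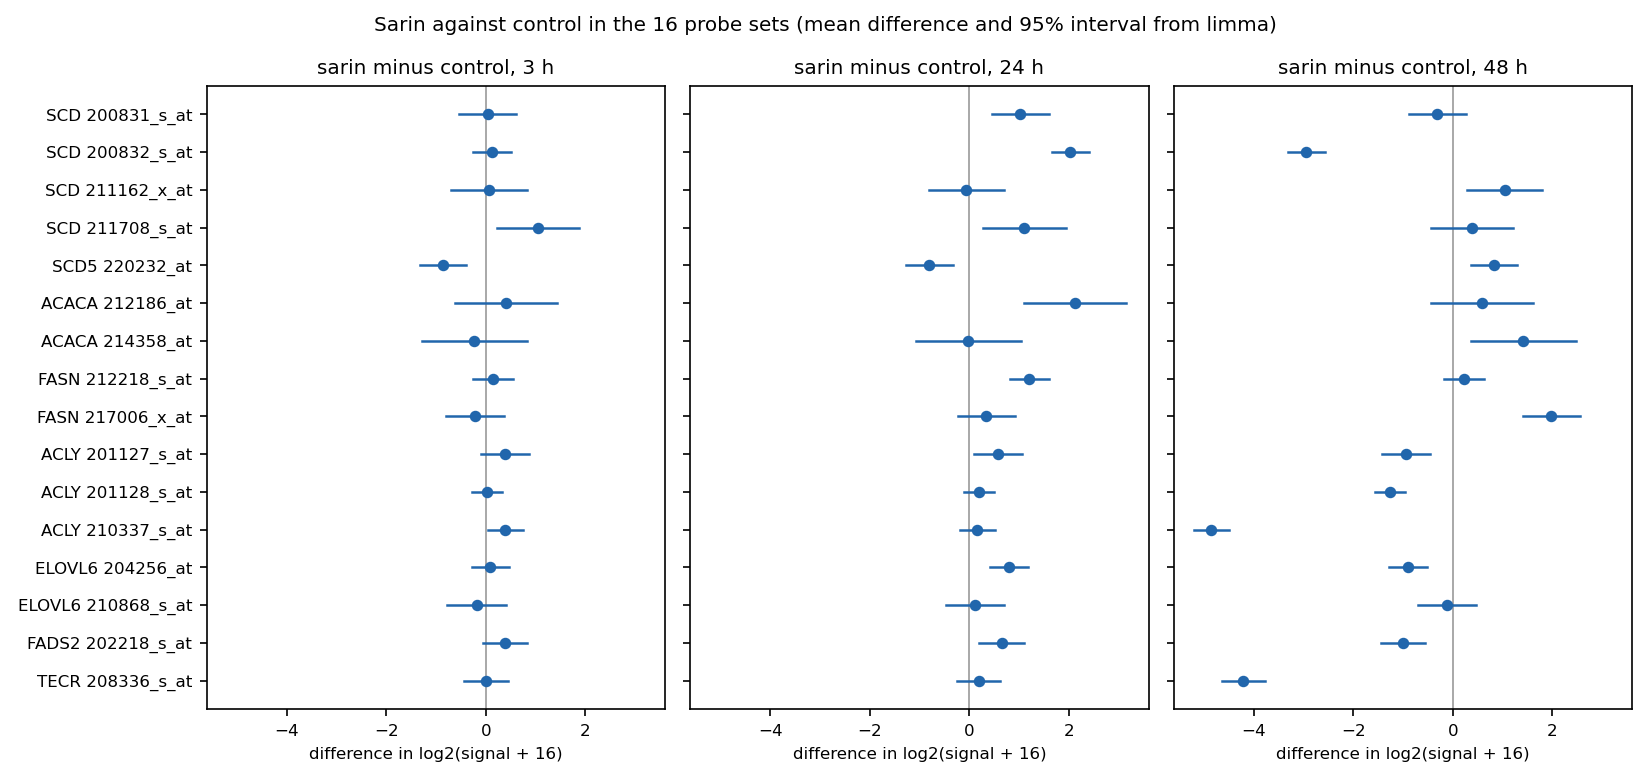
Log2 change of sarin against control for each member probe set at 3, 24 and 48 h, with 95% intervals (points are mean differences in log2(signal + 16)). SCD, ACACA and FASN have changes of 2.03, 2.12 and 1.21 at 24 h on their brighter probe sets, and 7 probe sets lie past the threshold below 0 at 48 h.

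Across the 16 probe sets, 0 passed the test at 3 h, where 0% of all probe sets passed in limma and 1624 of 19065 had an unadjusted p under 0.05, 3 of them members. Alternatives gave 0 to 1 calls in the whole table at 3 h. The arrays of sarin and control did not overlap for 3 members that were higher and 1 lower at 3 h, against 6.69% higher and 6.22% lower over all probe sets (12.9% together). The 3 higher were ACLY 210337_s_at, FADS2 and SCD 211708_s_at, which was near background, and the lower was SCD5. The members' median log2 change at 3 h was 0.08, beside -0.01 over all.

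At 24 h, the contrast used to choose the genes, 5 members were higher past an adjusted p of 0.05 and 0 lower, beside 3.59% of all probe sets (1.7% higher and 1.89% lower), from which nothing is read. They were SCD 200832_s_at and 200831_s_at, ACACA 212186_at, FASN 212218_s_at and ELOVL6 204256_at. The higher members were 8 after median centring, 2 without sarin replicate 1, sarin replicate 3 or control replicate 2, 3 without sarin replicate 2 or control replicate 3, and 4 without control replicate 1. SCD5 was past the threshold as lower in 8 of 16 alternatives, among them quantile normalization and the fit without control replicate 3. Groups did not overlap for 8 members that were higher and 1, SCD5, that was lower, beside 10.9% and 21.4% over all (32.3% together). The members' median change was 0.46, beside -0.16 over all. Set against all 9 control arrays of the 3 times, the 3 sarin arrays of 24 h were the highest for 5 of 16 members, beside 4.01% of all probe sets, and the lowest for 0, beside 4.11%. The 5 above all controls were SCD 200832_s_at and 211708_s_at, ACACA 212186_at, FASN 212218_s_at and ELOVL6 204256_at, and for SCD 211708_s_at this is a rank against background, since it was above background on 2 of the 3 sarin arrays and on 0 of the 9 control arrays. The difference between the sarin effects of 24 h and 3 h, which holds the same contrast, was past the threshold for 1 member, SCD 200832_s_at (1.91 ± 0.26), beside 0.346% of all probe sets (0.115% higher and 0.231% lower), and nothing is read from it.

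Markers of substrate-adherent neuroblastoma cells, a cell form known from neuroblastoma cultures, had a lower summed signal at 24 h. Over 16 of 16 genes it was 43494 to 45587 with sarin, against 69874 to 70524 in control. Bright genes weigh most in such a sum, with LGALS1 averaging 11369 with sarin and 23941 in control. The median log2 change of the 16 was -0.41, beside -0.16 over all probe sets. Past the threshold, 4 of the 16 were lower and 0 higher, beside 1.89% and 1.7% of all probe sets. The 3 largest of the 4 were S100A10 at -1.17, LGALS1 at -1.07 and THBS1 at -1.05. In control at 24 h against 3 h, 1 of the 16 passed as higher, THBS1, and 0 as lower, beside 1.96% and 1.16% of all probe sets. THBS1 averaged 411 with sarin at 24 h, against 866 in control at 24 h and 445 in control at 3 h. The 14 noradrenergic markers summed to 128701 to 131830 with sarin at 24 h, against 121127 to 129804 in control, which overlap. Their median log2 change was 0.01, with 2 genes past the threshold as higher and 3 as lower, beside 1.7% and 1.89% of all probe sets. The 3 called lower were INSM1 at -1.66, RET at -1.26 and CHGB at -1.02. Between control at 24 h and 3 h, 2 of the 14 passed as higher, CHGB and CHGA, and 0 as lower. CHGB averaged 5749 with sarin at 24 h, against 11668 in control at 24 h and 3709 in control at 3 h. The 6 measured glial markers summed to 589 to 682 with sarin, against 1033.5 to 1164 in control, with 0 genes past the threshold. Of the 6, 1 was above background on all sarin arrays of 24 h. The part of these shifts, and of the GAPDH ratio, in the members' values at 24 h was not tested.

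At 48 h, 7 members fell and 4 were called higher, beside 63.1% of all probe sets that passed (40.7% higher and 22.4% lower). The 7 were SCD 200832_s_at, the 3 ACLY probe sets, ELOVL6 204256_at, FADS2 and TECR, and each passed in every alternative in which it was tested. Of the 4 called higher, SCD5 had signal above background, while SCD 211162_x_at, ACACA 214358_at and FASN 217006_x_at were not above background in either group and get no fold. Scaling changed this split to 2 higher and 8 lower with quantile normalization, and to 1 higher, FASN 217006_x_at at background, and 8 lower with median centring. The groups did not overlap for 4 members that were higher and 7 that were lower, beside 42.4% and 22.2% over all (64.6% together). The members' median log2 change was -0.21, beside 0.57 over all, and the scaling moved that of all probe sets to 0.14 with quantile normalization and 0.07 with median centring. Noradrenergic markers summed to 55401 to 64736 with sarin at 48 h, against 112929 to 120709 in control. Of these 14 genes 0 passed as higher and 8 as lower. Substrate-adherent markers summed to 31930 to 35694.5 with sarin, against 69900 to 93790 in control, but went both ways, with 5 of 16 past the threshold as higher (CD44 at 2.08) and 6 as lower (LGALS1 at -2.34 and VIM at -2.09), and a median of 0.12. The 6 glial markers summed to 2214 to 2316 with sarin, against 794 to 1062 in control, with 4 higher and 0 lower. Background was 410.7 to 443 on each of these sarin arrays, against 103.1 to 161.1 in control at 48 h. Of the 6 genes, 2 were above it on all sarin arrays, and AQP4, GFAP and S100B on none, so no rise is read from the sum. Among the 4 called higher, OLIG2 was above background on 3 of 3 sarin arrays and SOX10 on 1, while S100B was on 0. All 3 of these genes were at background in control at 48 h. The part of the GAPDH and ACTB ratios, the background level and these marker sums in the 48 h values was not tested.

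**Figure D4:**
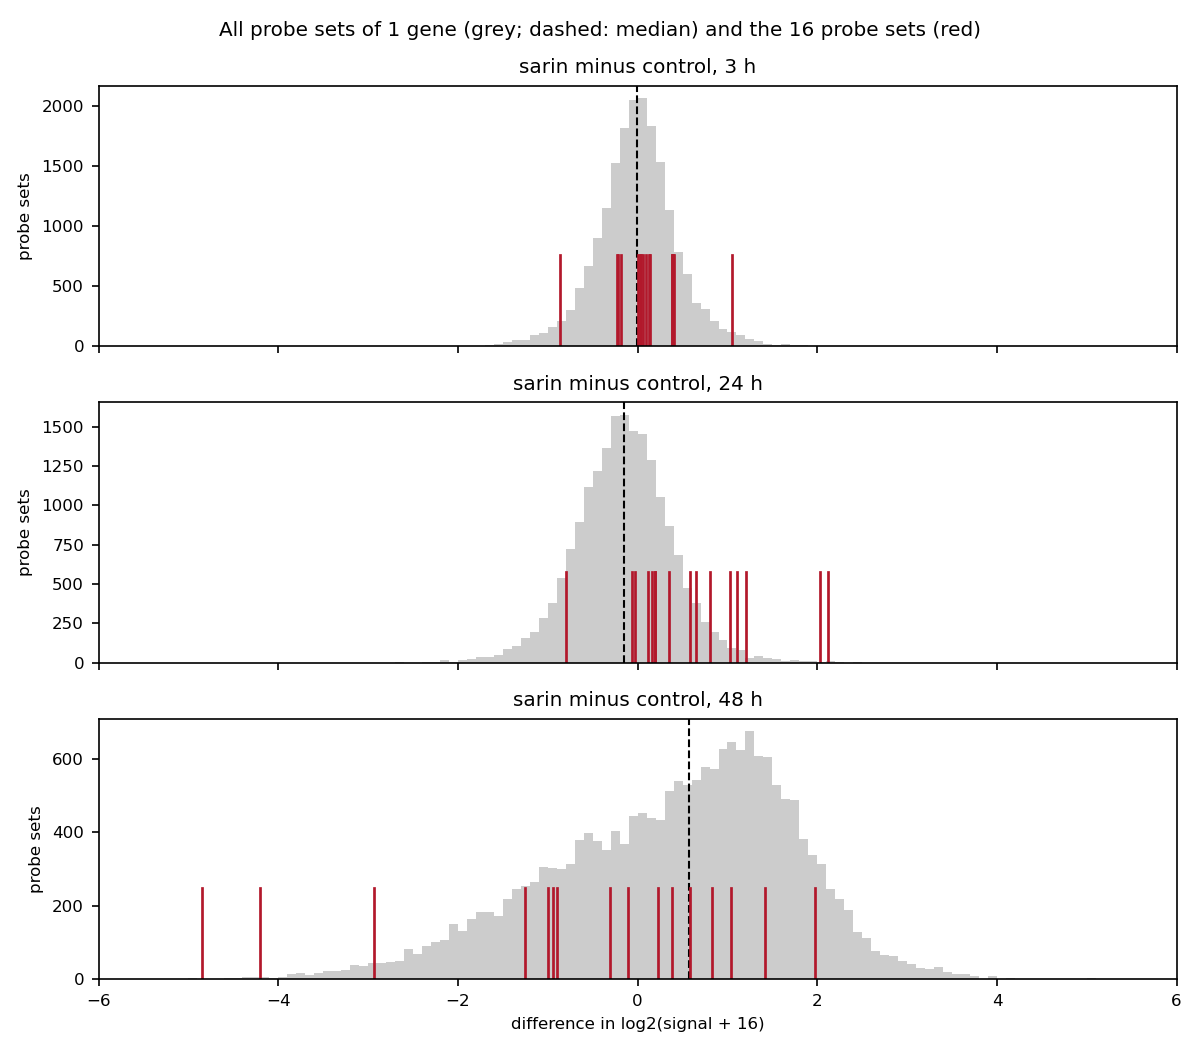
Histograms of the log2 change of sarin against control for all 19065 probe sets (grey, dashed line at the median) at 3, 24 and 48 h, with the 16 members as red lines. The median of all probe sets is -0.16 at 24 h and 0.57 at 48 h, beside 0.46 and -0.21 for the members.

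Genes of the pathway outside the group were read from lists. The list of fatty acid supply, elongation and activation genes had 28 of 40 genes measured, each read by its brightest probe set. With sarin at 24 h 2 of the 28 passed as higher and 0 as lower, beside the 1.7% and 1.89% of all probe sets. They were DBI, the acyl-CoA binding protein, and IDH1, an NADPH-making isocitrate dehydrogenase. DBI averaged 11570 ± 1381 with sarin and 5670.2 ± 990.2 in control (log2 change 1.04 ± 0.17, limma adjusted p = 0.002531). IDH1 averaged 3519 ± 199 with sarin and 2069 ± 221 in control (0.77 ± 0.17, limma adjusted p = 0.01609). The list's median change was -0.07, beside -0.16 over all probe sets. At 48 h 8 passed as higher and 10 as lower, beside the 40.7% and 22.4% of all probe sets, among them PGD, a dehydrogenase of the pentose phosphate pathway, at -2.89, ACSL5, an acyl-CoA synthetase, at 2.89 and ELOVL5, an elongase of polyunsaturated chains, at -2.28.

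Of the SREBP regulators, 10 of 11 genes were measured. At 24 h 1 passed, INSIG1, which holds SREBPs in the endoplasmic reticulum and is itself an SREBP target. INSIG1 averaged 1059.6 ± 101 with sarin and 624 ± 101 in control (log2 change 0.76 ± 0.18, limma adjusted p = 0.02893). Over all probe sets 1.7% passed as higher and 1.89% as lower at 24 h. The list's median at 24 h was 0.05. At 48 h 3 passed as higher and 2 as lower, beside 40.7% and 22.4% of all probe sets. NR1H3 was higher at 1.49, and MBTPS1 was lower at -2.05. MBTPS1 averaged 528 ± 325 with sarin, where 1 of 3 arrays was above background, against 2095 ± 755 in control. INSIG2, a homologue of INSIG1, fell to 117 ± 89.9 with sarin, at background on all 3 arrays, against 716 ± 8.82 in control.

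Genes of glycerolipid assembly, which put fatty acids into membrane and storage lipids, had 18 of 25 measured. At 24 h 1 passed as higher and 1 as lower, beside 1.7% and 1.89% of all probe sets. LPIN1, a phosphatidate phosphatase, averaged 4396 ± 269.9 with sarin and 2329 ± 361 in control (log2 change 0.92 ± 0.16, limma adjusted p = 0.003139). AGPAT2, an acyltransferase that makes phosphatidate, averaged 1147 ± 63.3 with sarin and 2026 ± 315 in control (-0.80 ± 0.18, limma adjusted p = 0.01764). At 48 h 7 passed as higher and 4 as lower, beside 40.7% and 22.4% of all probe sets.

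Fatty acid oxidation, which breaks the chains down, had 26 of 29 genes measured. At 24 h 2 passed as higher and 1 as lower, beside 1.7% and 1.89% of all probe sets, the list's median being -0.08. ACADVL, the very long chain acyl-CoA dehydrogenase of mitochondria, averaged 1679 ± 157 with sarin and 3942 ± 509 in control (log2 change -1.22 ± 0.16, limma adjusted p = 0.0004268). ETFB, a subunit of the electron transfer flavoprotein, averaged 333 ± 26.3 with sarin and 119.9 ± 95.2 in control, where 1 of 3 arrays was above background (1.59 ± 0.41, limma adjusted p = 0.03678). ECHS1, the short-chain enoyl-CoA hydratase, averaged 5079.7 ± 198 with sarin and 3283 ± 206 in control (0.63 ± 0.17, limma adjusted p = 0.04463). At 48 h 4 passed as higher and 9 as lower, beside 40.7% and 22.4% of all probe sets. At 3 h 0 genes of these 4 lists passed in limma, and 2, 0, 4 and 2 had an unadjusted p under 0.05, in the order of the lists above. In control cells at 24 h against 3 h 3 genes passed, beside 3.13% of all probe sets. All 3 are among those called with sarin at 24 h, which shares the 24 h control arrays. AGPAT2 averaged 2026 ± 315 in control at 24 h and 1283 ± 265 at 3 h (log2 change 0.66 ± 0.18, limma adjusted p = 0.04884), beside 1147 ± 63.3 with sarin at 24 h. ACADVL averaged 3942 ± 509 in control at 24 h and 2086 ± 313 at 3 h (0.92 ± 0.16, limma adjusted p = 0.005714), beside 1679 ± 157 with sarin at 24 h. ETFB fell in control at 24 h, to 119.9 ± 95.2, against 401 ± 137 at 3 h (-1.79 ± 0.41, limma adjusted p = 0.02269). In control cells at 48 h against 3 h 0 passed, and 0, 0, 1 and 4 had an unadjusted p under 0.05.

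The genes whose log2 signal ran most like that of SCD 200832_s_at were sought among 8046 genes, by Pearson r as a description. Over all 18 arrays they were SMARCD2 at 0.965, DDX1 at 0.962, IDH1 at 0.958, COA3 and TXNL1 at 0.954, and COX6B1 at 0.953. Those 18 arrays include the 3 of sarin at 48 h, which stand apart from the rest, with more probe sets called higher (40.7%) than lower (22.4%) against control. Over the 15 others the leading genes were ENSA at 0.950, DUSP7 at 0.945, ITM2C at 0.894, ZNF804A at 0.889, COA3 at 0.888 and ACAT2 at 0.886, so 1 of 6 was shared. Among the members FASN 212218_s_at had an r of 0.830 with SCD over the 15 arrays, ELOVL6 204256_at 0.731, ACACA 212186_at 0.643 and FADS2 0.504. SCD5 had 0.03, TECR 0.05 and ACLY 210337_s_at -0.15. The other SCD probe sets had 0.56 (200831_s_at), 0.392 (211708_s_at) and -0.394 (211162_x_at). ACLY 201127_s_at had 0.491, FASN 217006_x_at 0.445, ACLY 201128_s_at 0.421, ELOVL6 210868_s_at 0.229 and ACACA 214358_at 0.165. Those 15 arrays hold the 24 h contrast used to choose the genes, so nothing is read from the members' r values.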

How the data were processed

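Total RNA from SH-SY5Y cells was hybridised to 18 one-colour arrays, 3 for each of 6 groups taken from the titles. The deposited intensity values are linear MAS5 signals, as the submitters' processing notes name that tool. Which version, scaling target or filter was used is not given in the sources used here. The mean after dropping the lowest and highest 2% was 799.5 to 799.9 on every array, so scaling ties each array's levels together. No 2 arrays were identical. Of 22283 probe sets, 68 are controls, 1043 have several genes and 2107 none in the platform annotation used; the 19065 with 1 gene (11963 genes) were kept. Symbols were checked against RefSeq (GRCh38.p14), and 0 changed.

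Values were fitted as log2(signal + 16), with no level filter, as 6 group means in limma 3.58.1 under R 4.3.3 (lmFit, eBayes with trend, 12 residual and 6.698 prior degrees of freedom). P-values were adjusted by Benjamini-Hochberg over all 19065 probe sets, with a threshold of 0.05. The code was tested on simulated data. The background level of an array was the 90th percentile over 27 bacterial probe sets with no spike. A probe set that passed it on none of a group's 3 arrays counts as not above background, and a fold against it is a bound, from the mean of the higher of the probe set's own signal and that level on each array. The precision is limited by the number of arrays.

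The members and lists were chosen with earlier results of these data known. All member probe sets are described; of each other list, the text names at most the 3 genes with the largest change among those past the threshold in a comparison, each by its brightest probe set, and the 6 genes most like SCD. Replicate numbers share only a number: same-numbered arrays had deviations correlating at -0.0763 to 0.0346. Alternatives covered the pseudocount, a level filter, scaling, array weights, probe set choice, the replicate block, fewer groups and each array left out.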

Additional observations from a re-analysis of the deposited data

Results flagged for a closer look

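The sarin effect on SCD 200832_s_at differed between times, by 1.905 on the log2 scale for 24 h minus 3 h. This value holds the 24 h contrast with which the genes were chosen, so it is a description and no p is given.

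For the other values here, all sarin arrays lay above all control arrays at 1 of the times and below them at the other. The differences were not tested. Those for 48 h minus 24 h hold the 24 h contrast with which the genes were chosen, so nothing is read from them. SCD 200832_s_at had a 48 h minus 24 h difference of -4.968 as fitted, its sarin signal being below background at 48 h (at least 2.71-fold below control there). SCD5 moved the other way, at 1.634 for 48 h minus 24 h and 1.696 for 48 h minus 3 h. ACLY 210337_s_at had a fitted -5.238 for 48 h minus 3 h, its sarin signal being at background on all 3 arrays of 48 h (at least 9.42-fold below control there), and ACLY 201127_s_at had -1.526 for 48 h minus 24 h. ELOVL6 204256_at had -1.7 for 48 h minus 24 h. FADS2 had -1.387 for 48 h minus 3 h and -1.651 for 48 h minus 24 h. All of the 48 h values rest on the 3 sarin arrays with a GAPDH 3′ to 5′ ratio of 2.15 to 2.30, whose part in them was not tested.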

How the results depend on the processing

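The count of members past the threshold stayed at 0 at 3 h and at 1 in control at 48 h against 3 h under every alternative run. At 24 h it was 5, with 8 after median centring, 5 to 7 in the other settings that keep all arrays compared, and 2 to 4 when 1 array was left out. SCD5, lower, was among those called at 24 h in 8 of 16 alternatives. At 48 h it was 11 of 16 (4 higher, 7 lower), 10 with quantile normalization (2 higher, 8 lower), 9 with median centring (1 higher, 8 lower) and 6 of 8 with 1 probe set per gene, a setting that tests fewer. In control at 24 h against 3 h it was 1, and 4 after median centring. For the 24 h minus 3 h difference it was 1, and 1 to 2 with 1 array left out, where FASN 212218_s_at was added without control replicate 3 of 24 h. This difference holds the 24 h contrast used to choose the genes, so nothing is read from it. Of the 6 genes most like SCD, 1 was shared without the sarin 48 h arrays. No member value past the threshold changed sign. Over the whole table the counts were 0 to 1 at 3 h, 209 to 2137 at 24 h, 7811 to 12305 at 48 h, 29 to 1244 and 2 to 205 in control at 24 and 48 h against 3 h, and 16 to 307 for the difference. Scaling set the split of higher against lower calls. It was 324 to 360 at 24 h, 205 to 182 after quantile normalization and 1082 to 139 after median centring. At 48 h it was 7759 to 4263, then 4969 to 4939 and 4373 to 5783. In control at 24 h against 3 h it was 374 to 222, then 114 to 114 and 160 to 1084, and at 48 h against 3 h 7 to 8, then 4 to 1 and 7 to 42. For the difference it was 22 to 44, then 10 to 30 and 58 to 17. With the replicate block, which pairs arrays by number only, the members' counts were 0, 5, 11, 1, 1 and 1 in the order above (3, 24 and 48 h, control at 24 and 48 h, the difference), as without it, and the whole table's were 0, 609, 12039, 552, 11 and 42. In 0 of 9 cases did an array correlate best with its own number. The cause of these shifts was not tested. Signal near background limits SCD 211162_x_at and 211708_s_at, ACACA 214358_at and FASN 217006_x_at.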
